A study of Sus scrofa with 12 samples.

Results

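The mitochondrial carrier family SLC25 was followed in the liver of Jinhua (JH) and Landrace (LD) pigs. Members were taken by symbol from the mRNA tables of 6 libraries, as every SLC25A gene with a number and the uncoupling proteins UCP1 to UCP3, without SLC25A20. This gave 41 members among 31694 listed genes. The libraries came from 3 JH pigs and 3 LD pigs, all uncastrated males 70 days old, with 1 liver library per pig. JH is a local pig of eastern China valued for fatty meat, and LD is a commercial breed of European origin kept for lean meat. Breed was the only contrast, and it covers the whole genetic background of the animals and any trait that differed with breed. The study reports higher body weight, liver weight, serum insulin and serum thyroid hormones in LD. It reports higher total and low density lipoprotein cholesterol in the serum of JH. Whether the pigs shared feed and housing is not given in the sources used here. Whole liver was used, so each value is a mean over hepatocytes and all other cells of the tissue, and fewer cells of a type and less RNA per cell cannot be told apart.

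Members of the SLC25 family sit mostly in the inner mitochondrial membrane, which is closed to most charged molecules, and they pass nucleotides, phosphate, carboxylates, amino acids, cofactors and metal ions across it. Most work as exchangers, and each is built from repeats of the same fold around a central binding site. In the liver they join cytosol and mitochondria in the urea cycle, the malate-aspartate shuttle, gluconeogenesis and the export of citrate for lipid synthesis. They are made in the cytosol and carried by TOM and small TIM proteins to the TIM22 complex of the inner membrane.

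The authors deposited RPKM, the reads of a gene scaled to its length and to the total reads of the library. The reads behind these values were recovered from their steps, and the totals that the RPKM were divided by ranged from 5744908 reads in JH1 to 7914515 reads in LD3. Hepatocyte markers were abundant in all libraries, and ALB ranged from 27533 to 53893 RPKM. Of 8 muscle markers 5 were listed at 0 in every library, which is not a measure of absence in this table. ACTA1 and MYH1 stayed under 0.1 RPKM, and DES ranged from 3.92 RPKM in JH3 to 8.10 RPKM in LD1. The 7 listed markers of stellate and endothelial cells summed to between 70.1 and 90.7 RPKM in JH and between 184 and 319.6 RPKM in LD, and all 7 had a log2 fold change below 0. The ribosomal RNA gene RN18S, which enters the read total, ranged from 1570 RPKM in JH2 to 62257 RPKM in JH3. The part of these differences in the values of the carriers was not tested.

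Of the 41 members, 39 had an RPKM above 0 in at least 1 library and 35 in all 6. Reads were recovered for all 39. The adenine nucleotide carriers SLC25A6 and SLC25A31 were listed at 0 in every library. VDAC2 and IDH1, which most cells use, were also listed at 0 in every library, so a listed 0 is not a measure of absence in this table. The test covered 35 members, those with at least 0.5 RPKM in at least 3 libraries. The other 4 members above 0 were too low to pass, and they were SLC25A2, SLC25A41, SLC25A53 and UCP3. UCP1, SLC25A10, SLC25A11, SLC25A18, SLC25A24, SLC25A42, SLC25A52 and SLC25A54 were not analysed here. The listed genes LOC100525444 and LOC100626629 are named SLC25A14 and SLC25A30 by RefSeq and fell outside the choice by symbol. The first was at 1.49, 1.98 and 1.40 RPKM in JH1, JH2 and JH3 and at 1.68, 0.721 and 1.08 RPKM in LD1, LD2 and LD3, with overlapping breeds, and the second was listed at 0.

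Levels differed widely between members. The mean over the 6 libraries was at least 100 RPKM in 5 members, from 10 to 100 RPKM in 9, from 1 to 10 RPKM in 19 and under 1 RPKM in 8. The highest 5 were SLC25A4 with 325 RPKM, SLC25A47 with 205 RPKM, SLC25A3 with 199 RPKM, SLC25A1 with 144 RPKM and SLC25A5 with 134 RPKM. SLC25A47 and SLC25A3 cannot be ranked against each other, since the SLC25A47 values ran from 18.8 to 599 RPKM. SLC25A1 and SLC25A5 also overlapped in level. SLC25A39 with 93.9 RPKM came next, and all others had means of 38.3 RPKM or less.

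**Figure D1:**
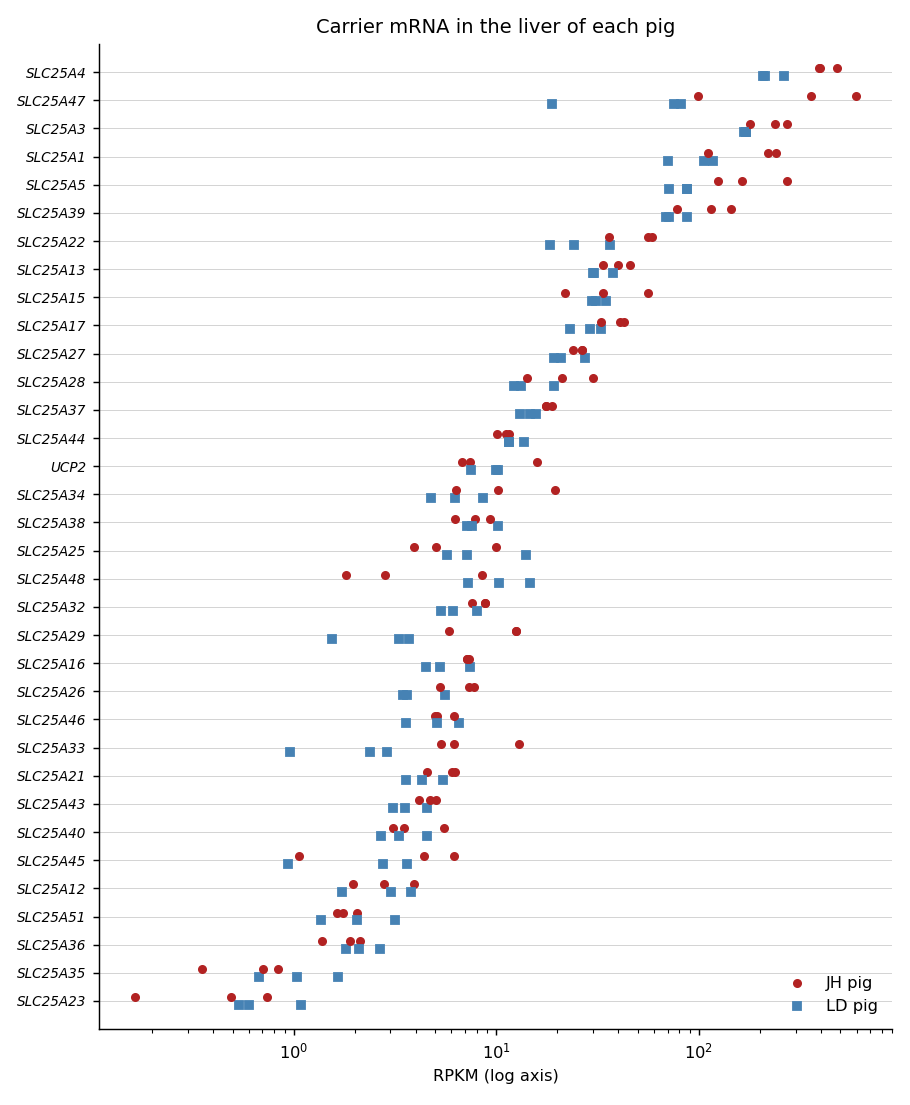
RPKM of 34 of the tested carriers on a log axis, with 1 point per pig (JH circles, LD squares) and genes ordered by their mean over the 6 libraries. SLC25A4 lay at the top with all JH values at or above 392 RPKM and all LD values at or below 262 RPKM, and SLC25A47 showed the widest spread within each breed among the 5 most abundant members.

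No carrier passed the threshold for differentially expressed genes (DEGs), a Benjamini-Hochberg adjusted p from limma under 0.05 over all 12993 tested genes with an absolute log2 fold change above 1. Of all tested genes 310 (2.39%) passed it, 1.02% higher in JH and 1.36% lower in JH. The same 310 genes passed the adjusted p alone, and the smallest absolute log2 fold change among them was 1.08. The lowest adjusted p of a carrier was 0.0559, that of SLC25A29. With voom on the recovered reads SLC25A29 passed, with an adjusted p of 0.0255, and no other carrier did. At an unadjusted p under 0.05 there were 9 of 35 carriers (25.7%), against 17.9% of all tested genes. Of the 9, 8 were higher in JH (22.9% of the carriers, against 8.35% of all tested genes) and 1 was lower in JH (2.86%, against 9.51%). These 9 were SLC25A47, SLC25A33, SLC25A29, SLC25A5, SLC25A22, SLC25A1, SLC25A4 and SLC25A26, all higher in JH, and SLC25A48, lower in JH.

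The 3 JH values lay apart from the 3 LD values in 7 of the 35 carriers (20%), against 23.4% of all tested genes, so the share of separated carriers was no higher than the background. All 7 were higher in JH, where the share among all tested genes was 10.8%, and none was lower in JH, where it was 12.5%. Fold changes are given throughout as JH over LD, and they were above 0 on the log2 scale in 27 of 35 carriers (77.1%), against 52.9% of all tested genes. The median was 0.34 over the carriers and 0.04 over all tested genes. When any single library was left out the median over the carriers stayed between 0.23 and 0.43. These shares and medians are descriptions, and no test compared the carriers with other genes. The standard error of a carrier's fold change had a median of 0.32 on the log2 scale, and the 95% interval lay wholly between -1 and 1 in 17 of the 35 carriers. In 14 carriers it reached past 1 and in 4 past -1, so a change of 2-fold or more remained within the error of those.

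**Figure D2:**
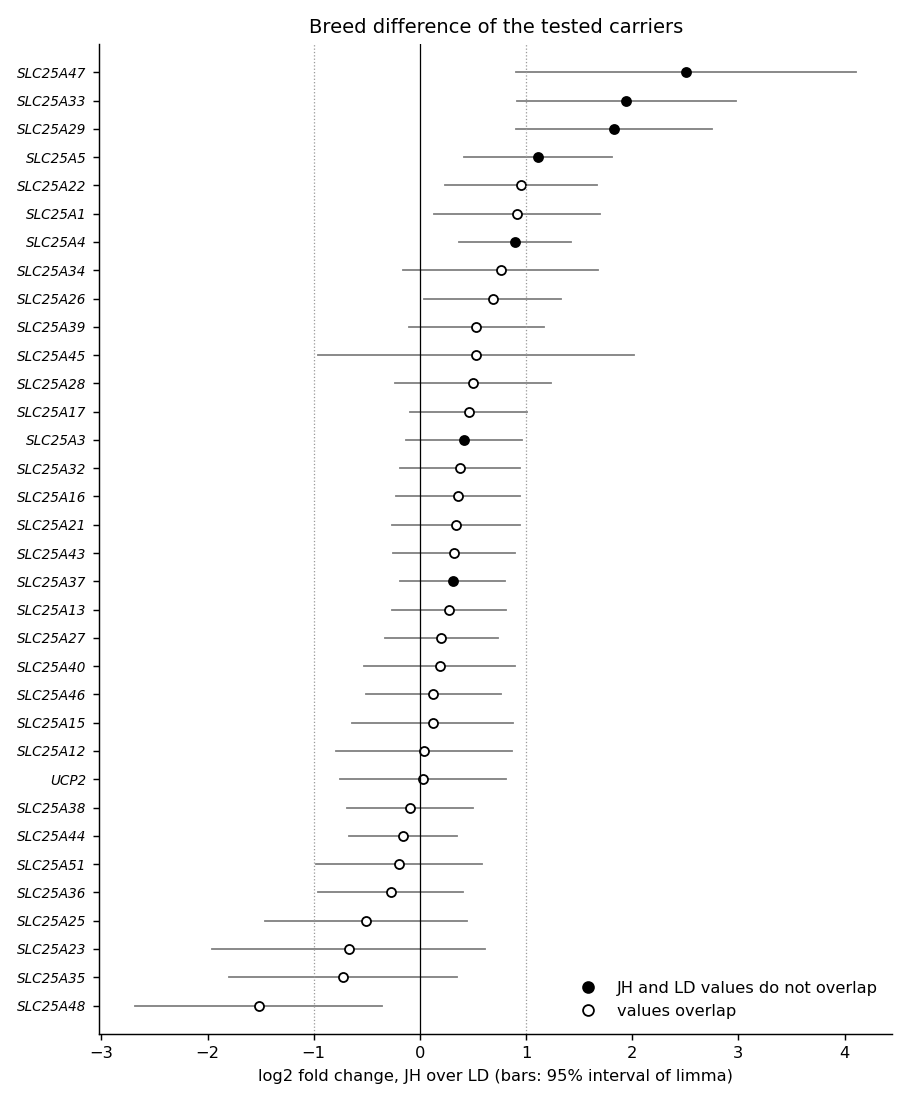
Log2 fold change, JH against LD, for 34 of the tested carriers, with bars for the 95% interval from limma and dotted lines at -1 and 1. The 7 filled points, carriers whose JH and LD values do not overlap, all lie to the right of 0, and SLC25A48 is the lowest point at -1.52.

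**Figure D3:**
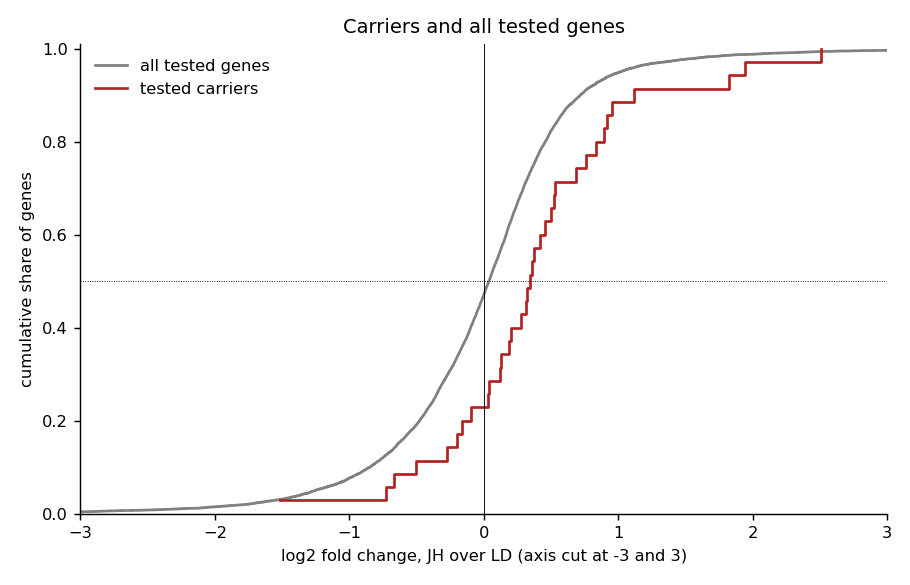
Cumulative share of genes against the log2 fold change between JH and LD, for the 35 tested carriers and for all 12993 tested genes. The curve of the carriers lies to the right through most of its range, with medians of 0.34 and 0.04.

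The summed RPKM of the 41 members was 2417, 1871 and 1274 in JH1, JH2 and JH3 and 1078, 1027 and 868 in LD1, LD2 and LD3. All JH sums lay above all LD sums, but JH1 stood far above JH3. The JH mean was 1854 ± 572 RPKM and the LD mean 991 ± 109 RPKM (SD, n = 3 each), a ratio of 1.87. Without SLC25A47 the ratio was 1.61. The sum over all listed genes was also higher in JH, with a ratio of 1.11, and as a share of that sum the family held 0.383, 0.292 and 0.217% in JH1, JH2 and JH3 and 0.193, 0.183 and 0.158% in LD1, LD2 and LD3. The 5 most abundant members made up between 71.2% and 77.3% of the family sum in JH and between 63.1% and 65.1% in LD. Among the tested carriers JH3 gave the lowest of the JH values in 23 of 35, and LD3 the lowest of the LD values in 20 of 35. These libraries held the lowest value of their breed in 55.8% and 56.5% of all tested genes, and both had the highest RN18S of their breed. RN18S was at 5991, 1570 and 62257 RPKM in JH1, JH2 and JH3 and at 7309, 2108 and 20160 RPKM in LD1, LD2 and LD3. The libraries with the lowest RN18S, JH2 and LD2, held the middle family sum of their breed. A link between RN18S and the carrier values was not tested.

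**Figure D4:**
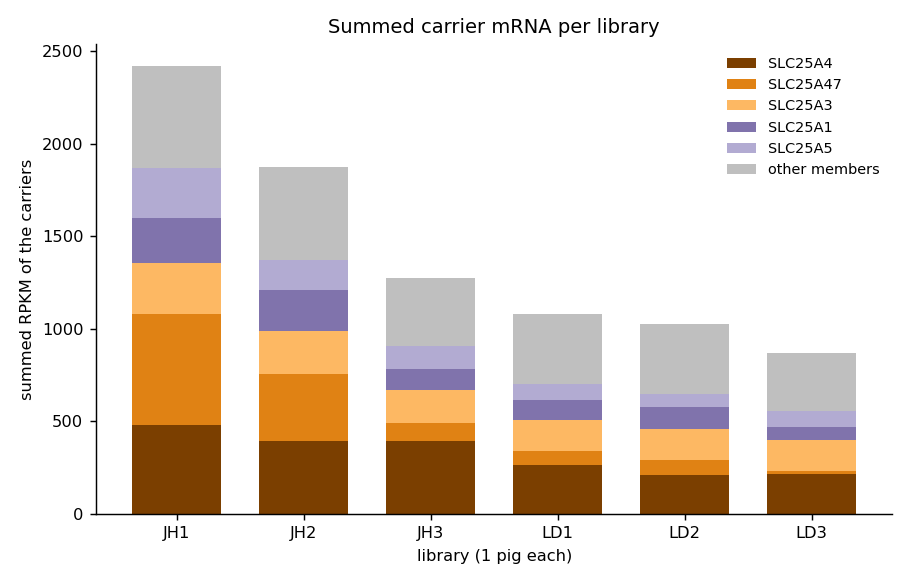
Summed RPKM of the 41 members in each library, stacked by the 5 most abundant members and all others. The sum ranged from 868 RPKM in LD3 to 2417 RPKM in JH1, and the SLC25A47 segment differed most between libraries.

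The adenine nucleotide and phosphate carriers supply ATP synthesis with its substrates. SLC25A4 and SLC25A5 exchange ADP for ATP, and SLC25A3 brings in phosphate and also copper. SLC25A4 was at 482, 395 and 392 RPKM in JH1, JH2 and JH3 and at 262, 208 and 213 RPKM in LD1, LD2 and LD3. All JH pigs lay well above all LD pigs, and the spread within each breed was small. The JH mean was 423 ± 50.9 RPKM and the LD mean 228 ± 29.7 RPKM (SD, n = 3 each) (log2 fold change 0.90, standard error 0.23, adjusted p = 0.0919 from limma), and the 95% interval of the log2 fold change was 0.37 to 1.42. When any single library was left out its log2 fold change stayed between 0.80 and 1.00. SLC25A5 was at 271, 164 and 125 RPKM in the JH pigs and at 87.5, 70.9 and 87.8 RPKM in the LD pigs. The lowest JH pig was still above the highest LD pig, while JH1 was 2.18 times JH3 (log2 fold change 1.11, standard error 0.31, adjusted p = 0.107 from limma). Without JH3 SLC25A5 passed the threshold, with an adjusted p of 0.0437. It did not pass without any other single library, and its adjusted p reached 0.290 from limma without LD2. SLC25A4 made up 64.0, 70.7 and 75.9% of the sum of SLC25A4 and SLC25A5 in JH1, JH2 and JH3 and 74.9, 74.6 and 70.8% in LD1, LD2 and LD3, so the balance of the 2 isoforms overlapped between the breeds. SLC25A4, SLC25A5 and the listed but unmeasured SLC25A6 are close paralogs, and how reads that match several of them were assigned is not given in the sources used here.

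SLC25A3 was at 274, 236 and 179 RPKM in the JH pigs and at 171, 170.0 and 167 RPKM in the LD pigs. The LD pigs were nearly equal and all lay below JH3, the lowest JH pig, but the difference was small (log2 fold change 0.42, standard error 0.24, adjusted p = 0.413 from limma). SLC25A25 and SLC25A23 exchange ATP-Mg for phosphate under the control of calcium and set the total adenine nucleotide of the matrix. SLC25A25 was at 3.93, 5.05 and 9.96 RPKM in JH and at 7.20, 13.96 and 5.71 RPKM in LD, with JH3 and LD2 high and the breeds overlapping (log2 fold change -0.50, standard error 0.42, adjusted p = 0.575 from limma). SLC25A23 was at 0.165, 0.735 and 0.491 RPKM in JH and at 0.535, 1.08 and 0.60 RPKM in LD, values that rest on between 1 and 9 reads (log2 fold change -0.67, standard error 0.57, adjusted p = 0.581 from limma). Both of these low ATP-Mg carriers had a fold change below 0, and the 3 abundant carriers of this group one above 0. The related SLC25A41 had 1 read each in JH1, JH2 and LD1 and none in the other libraries.

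The uncoupling proteins take their name from UCP1, which lets protons leak back and so makes heat in brown fat. UCP2 is the form found in many tissues and moves small carboxylates. UCP2 was at 7.44, 15.9 and 6.77 RPKM in JH and at 10.17, 9.91 and 7.45 RPKM in LD. JH2 was the highest and JH3 the lowest of all pigs, so all LD pigs lay within the range of the JH pigs (log2 fold change 0.03, standard error 0.35, adjusted p = 0.974 from limma, 95% interval -0.75 to 0.81). With quantile normalization its log2 fold change was -0.054. SLC25A27, also called UCP4 and known mainly from the brain, was at 26.5, 23.9 and 26.5 RPKM in JH and at 27.4, 20.8 and 19.3 RPKM in LD. Its level was higher than that of UCP2 in every library, and the breeds overlapped (log2 fold change 0.20, standard error 0.24, adjusted p = 0.7 from limma). UCP3, known from muscle, had 4, 3 and 0 reads in JH1, JH2 and JH3 and 0, 1 and 0 reads in LD1, LD2 and LD3, too few to compare. A count of 0 allows up to 0.173 RPKM in JH3, at 3 reads, and covers counting error only.

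The carboxylate carriers link the citric acid cycle to the cytosol. SLC25A1 exports citrate, which ATP citrate lyase then splits to make cytosolic acetyl-CoA for fatty acid and sterol synthesis. SLC25A1 was at 242, 219 and 111 RPKM in JH and at 106, 117 and 70.7 RPKM in LD. JH1 and JH2 were far above all LD pigs, but JH3 lay between the LD pigs (log2 fold change 0.92, standard error 0.35, adjusted p = 0.208 from limma, 95% interval 0.14 to 1.69). SLC25A34 and SLC25A35 are related carriers with little known substrates. SLC25A35 was at 0.832, 0.704 and 0.353 RPKM in JH and at 0.673, 1.64 and 1.04 RPKM in LD, with between 4 and 19 reads per library and overlapping breeds (log2 fold change -0.72, standard error 0.48, adjusted p = 0.468 from limma). SLC25A34 overlapped as well, with a log2 fold change of 0.76, and so did the oxoadipate carrier SLC25A21 with 0.34.

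Among the amino acid carriers SLC25A29, which takes up basic amino acids such as arginine and lysine, differed most. SLC25A29 was at 12.4, 12.5 and 5.87 RPKM in JH1, JH2 and JH3 and at 3.70, 3.30 and 1.54 RPKM in LD1, LD2 and LD3. JH1 and JH2 were nearly equal, JH3 was at less than their level but still above LD1, and LD3 was the lowest of all pigs. The JH mean was 10.3 ± 3.81 RPKM and the LD mean 2.85 ± 1.15 RPKM (SD, n = 3 each), a ratio of 3.61. These values rest on between 51 and 406 reads per library. The log2 fold change was 1.83 (standard error 0.41, unadjusted p = 0.00149, adjusted p = 0.0559 from limma), just short of the threshold. It passed with an adjusted p of 0.0305 when each library was shifted to the same median, and stayed between 1.45 and 2.18 with each library left out. The adjusted p of SLC25A29 from limma was 0.0682 with a pseudocount of 0.01 and 0.0958 with no filter. With a library left out it was between 0.0296 and 0.153, and SLC25A29 passed only without JH3.

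SLC25A22, the glutamate carrier, was at 55.8, 58.8 and 36.1 RPKM in JH and at 24.1, 36.4 and 18.4 RPKM in LD. JH1 and JH2 stood above all LD pigs, while JH3 and LD2 were nearly equal (log2 fold change 0.96, standard error 0.32, adjusted p = 0.165 from limma). SLC25A13, also called citrin, is the liver form of the aspartate/glutamate carrier and feeds both the malate-aspartate shuttle and the urea cycle. SLC25A13 was at 40.1, 45.7 and 33.6 RPKM in JH and at 37.8, 30.1 and 30.5 RPKM in LD, with overlapping breeds (log2 fold change 0.27, standard error 0.24, adjusted p = 0.588 from limma). It made up between 90.9% and 94.6% of the sum with its paralog SLC25A12 over the 6 libraries. SLC25A15, which exchanges ornithine for citrulline in the urea cycle, was at 56.2, 33.6 and 21.9 RPKM in JH and at 34.7, 31.2 and 29.7 RPKM in LD. JH1 was the highest and JH3 the lowest of all pigs, and the 3 LD pigs lay close together between them, and the sign of the difference turned with quantile normalization, to -0.046 (log2 fold change 0.12, standard error 0.34, adjusted p = 0.884 from limma, 95% interval -0.64 to 0.88). SLC25A39, the glutathione carrier, was at 145, 114 and 77.8 RPKM in JH and at 71.0, 87.0 and 68.7 RPKM in LD, where JH3 lay below LD2 (log2 fold change 0.53, standard error 0.28, adjusted p = 0.362 from limma). Its paralog SLC25A40 was low, between 2.69 and 5.54 RPKM.

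SLC25A33 had the largest difference among the carriers of cofactors and pyrimidine nucleotides. It moves pyrimidine nucleotides such as UTP and so serves the synthesis of mitochondrial RNA and DNA. SLC25A33 was at 12.9, 6.17 and 5.32 RPKM in JH1, JH2 and JH3 and at 2.37, 2.87 and 0.956 RPKM in LD1, LD2 and LD3. All JH pigs were above all LD pigs, JH1 was the highest and LD3 the lowest. The JH mean was 8.12 ± 4.13 RPKM and the LD mean 2.07 ± 0.994 RPKM (SD, n = 3 each), a ratio of 3.93. It rests on 88, 57 and 49 reads in JH and on 20, 27 and 9 reads in LD, and the 9 reads of LD3 have an exact Poisson 95% interval of 4.12 to 17.1 reads. The log2 fold change was 1.94 (standard error 0.46, unadjusted p = 0.00204, adjusted p = 0.0659 from limma). It passed the threshold with an adjusted p of 0.0438 when each library was shifted to the same median. With any single library left out it did not pass, with an adjusted p between 0.0593 and 0.166 from limma.

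SLC25A36, the other pyrimidine nucleotide carrier, was at 1.38, 2.12 and 1.89 RPKM in JH and at 2.65, 1.81 and 2.10 RPKM in LD, with overlapping breeds (log2 fold change -0.27, standard error 0.30, adjusted p = 0.682 from limma). SLC25A33 made up 90.3, 74.4 and 73.7% of the sum of the 2 genes in JH1, JH2 and JH3 and 47.2, 61.4 and 31.2% in LD1, LD2 and LD3. All JH shares lay above all LD shares, which follows from the values of SLC25A33 given above, and no test was made. SLC25A17, which sits in the peroxisome and carries CoA, FAD and NAD, was the most abundant of this group. It was at 42.6, 40.9 and 33.0 RPKM in JH and at 33.0, 23.0 and 29.1 RPKM in LD, and JH3 and LD1 were nearly equal (log2 fold change 0.46, standard error 0.25, adjusted p = 0.37 from limma). The S-adenosylmethionine carrier SLC25A26 had an unadjusted p of 0.039 (log2 fold change 0.68, standard error 0.28, adjusted p = 0.252 from limma).

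The iron carriers SLC25A37 and SLC25A28, called mitoferrin 1 and 2, bring iron in for heme and iron-sulfur clusters, and mitoferrin 1 is best known from red cell precursors. SLC25A37 was at 17.5, 18.7 and 17.6 RPKM in JH and at 13.2, 15.6 and 14.7 RPKM in LD. The 3 JH pigs were nearly equal and all above the LD pigs, with a small difference (log2 fold change 0.31, standard error 0.22, adjusted p = 0.499 from limma). SLC25A28 was at 21.1, 29.9 and 14.1 RPKM in JH and at 13.3, 19.4 and 12.2 RPKM in LD, with JH2 high and the breeds overlapping (log2 fold change 0.50, standard error 0.32, adjusted p = 0.462 from limma). Of 5 listed erythroid markers, HBB was lower in JH, at 98.3, 89.1 and 119 RPKM against 389, 209.7 and 229.8 RPKM (log2 fold change -1.39, standard error 0.29, adjusted p = 0.0459 from limma), and ALAS2 was at 0.877, 0.910 and 3.26 RPKM against 4.33, 2.62 and 4.59 RPKM. SLC4A1 and EPB42 stayed below 1 RPKM in every library. The summed level of the 5 was 90.2 to 122.7 RPKM in JH and 213 to 393 RPKM in LD, opposite in direction to SLC25A37, and the part of red cells in the carrier values was not tested.

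SLC25A47, a carrier found almost only in hepatocytes and with a debated substrate, showed the largest difference of all tested carriers and also the largest spread within the breeds. SLC25A47 was at 599, 358 and 99.3 RPKM in JH1, JH2 and JH3 and at 75.2, 81.4 and 18.8 RPKM in LD1, LD2 and LD3. JH1 was 6.03 times JH3, LD3 was far below LD1 and LD2, and JH3 was only slightly above LD2. The JH mean was 352 ± 250.0 RPKM and the LD mean 58.4 ± 34.5 RPKM (SD, n = 3 each), a ratio of 6.03. The log2 fold change was 2.51 (standard error 0.71, unadjusted p = 0.00619, adjusted p = 0.113 from limma, 95% interval 0.91 to 4.11). It was between 1.82 and 3.25 with each library left out, and without JH3 it passed the threshold with an adjusted p of 0.0331. Without any other single library it did not pass, and the adjusted p reached 0.273 from limma without LD3. Counting error is small here, with between 248 and 5753 reads per library. The 8 hepatocyte markers summed to between 57466 and 69787 RPKM in JH and between 72616 and 85927 RPKM in LD, lower in JH where SLC25A47 was higher. Of these 8, TF, ALB, SERPINA1 and CPS1 lay apart with JH lower and APOA1 lay apart with JH higher, and the part of hepatocyte content in the SLC25A47 values was not tested.

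SLC25A48, a relative of SLC25A47 linked to choline uptake, had the lowest fold change of the family. SLC25A48 was at 8.53, 2.81 and 1.82 RPKM in JH1, JH2 and JH3 and at 10.3, 14.7 and 7.23 RPKM in LD1, LD2 and LD3. JH2 and JH3 were below all LD pigs, and JH1 lay between LD3 and LD1. The JH mean was 4.39 ± 3.62 RPKM and the LD mean 10.7 ± 3.74 RPKM (SD, n = 3 each) (log2 fold change -1.52, standard error 0.52, adjusted p = 0.171 from limma). Without JH1 the log2 fold change was -2.14 and passed the threshold, with an adjusted p of 0.0362. It did not pass without any other single library, and the adjusted p reached 0.392 from limma without LD2. The 2 relatives thus had fold changes of opposite sign, and in both JH1 was the highest of the JH pigs.

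Of the tested carriers not described with values in every library, 13 had log2 fold changes from -0.20 to 0.76 and adjusted p of 0.252 or more. The highest of them was SLC25A34. SLC25A45 had the widest 95% interval of these, -0.96 to 2.01, with between 19 and 91 reads per library. The branched-chain amino acid carrier SLC25A44 and the glycine carrier SLC25A38 lay close to 0 with log2 fold changes of -0.16 and -0.10, 95% intervals -0.67 to 0.35 and -0.69 to 0.50. SLC25A46, which takes part in the dynamics of the outer membrane, had a log2 fold change of 0.13.

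In the RefSeq gene order of the assembly Sscrofa11.1, which placed 40 of the 41 members, 4 pairs of members lay with at most 1 gene between them. These were SLC25A23 with SLC25A41, UCP2 with UCP3, SLC25A43 with SLC25A5, and SLC25A29 with SLC25A47 on chromosome 7, where only the miRNA gene MIR345-1 stood between. SLC25A29 and SLC25A47 were thus neighbours and had 2 of the 3 largest fold changes of the family. The genes on either side had small or opposite values. YY1, a transcription factor on the side of SLC25A29, was at 5.13, 4.69 and 3.68 RPKM in JH and at 5.95, 9.21 and 7.82 RPKM in LD (log2 fold change -0.75, standard error 0.27, adjusted p = 0.189 from limma), with all JH pigs below all LD pigs. WARS, the tryptophanyl-tRNA synthetase on the side of SLC25A47, was at 10.96, 17.0 and 9.46 RPKM in JH and at 10.1, 11.1 and 7.73 RPKM in LD (log2 fold change 0.34, standard error 0.29, adjusted p = 0.585 from limma). DEGS2 and WDR25, the next genes outward, had log2 fold changes of 0.30 and -0.34. In the pair on chromosome X, SLC25A5 was separated between the breeds and SLC25A43 was not, with a log2 fold change of 0.32. Whether reads were counted by strand is not given in the sources used here, so reads shared between close neighbours cannot be told apart.

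Other mitochondrial genes were read from 6 lists beside the family, and none of them passed the threshold with limma. The lists held inner membrane transporters, outer membrane channels and the import route, and also shuttle enzymes, citrate export enzymes and regulators of mitochondrial biogenesis. Of their 41 tested genes 9 (22.0%) were higher in JH at an unadjusted p under 0.05, against 8.35% of all tested genes, and 1 (2.44%) was lower, against 9.51%. These were MPC2, SFXN1, TOMM20, TIMM8A, TIMM9, MDH1, MDH2, GPD1 and ESRRA, higher in JH, and ME1, lower in JH. Genes of the import route and of the inner membrane are named for their values or their role, chosen after the values were seen. Of 11 tested genes of the import route of the carriers, 10 had a log2 fold change above 0, with a median of 0.51, against 52.9% and 0.04 over all tested genes. Of the 11, 3 lay apart with JH higher, against 10.8% of all tested genes, and none with JH lower, against 12.5%. These 3 were the TOM protein TOMM20 at 39.0, 39.6 and 35.5 RPKM in JH and 25.2, 21.3 and 19.4 RPKM in LD (log2 fold change 0.80, standard error 0.23, adjusted p = 0.113 from limma), the small TIM protein TIMM8A at 56.4, 43.7 and 38.8 RPKM and 20.3, 17.4 and 29.9 RPKM (log2 fold change 1.05, standard error 0.28, adjusted p = 0.0961 from limma), and TIMM9, which escorts carriers across the intermembrane space, with a log2 fold change of 0.51. All other tested genes of the route, other TOM proteins among them, overlapped between the breeds. TIMM22, the channel that inserts the carriers, had a log2 fold change of -0.13. Of 11 inner membrane transporters outside the family 5 were above 0, against 52.9% of all tested genes, with a median of -0.09. MPC2, a subunit of the pyruvate carrier, had the largest fold change of them, at 179, 145 and 82.3 RPKM in JH and 61.0, 61.5 and 55.1 RPKM in LD, with all JH pigs above all LD pigs (log2 fold change 1.12, standard error 0.31, adjusted p = 0.103 from limma). The serine carrier SFXN1 also lay apart with JH higher, with a log2 fold change of 0.74. SFXN5 of the same family lay apart with JH lower, at 4.36, 3.46 and 4.48 RPKM in JH and 5.55, 5.07 and 4.90 RPKM in LD (log2 fold change -0.33, standard error 0.24, adjusted p = 0.504 from limma). The calcium channel MCU had a log2 fold change of -0.09. In the outer membrane the channel VDAC1 had a log2 fold change of 0.29, and the carrier relatives MTCH1 and MTCH2 had 0.17 and 0.28.

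Enzymes that work with the carriers gave a mixed picture. In the malate-aspartate shuttle the malate dehydrogenases MDH1, at 157, 114 and 129.5 RPKM in JH and 62.2, 77.1 and 66.0 RPKM in LD (log2 fold change 0.96, standard error 0.24, adjusted p = 0.0783 from limma), and MDH2, with a log2 fold change of 0.59, had JH values above all LD values. The aminotransferases GOT1 and GOT2 of the same shuttle had log2 fold changes of -0.21 and -0.42 and overlapped. GPD1 of the glycerol phosphate shuttle was at 433, 334 and 181 RPKM in JH and 150.1, 181 and 146 RPKM in LD, with JH3 just below LD2 (log2 fold change 0.91, standard error 0.33, adjusted p = 0.196 from limma). Around citrate export, where SLC25A1 had a log2 fold change of 0.92, some enzymes were below 0. Citrate synthase CS had -0.17, ATP citrate lyase ACLY -0.48 and malic enzyme ME1 -1.39 on the log2 scale, and their breeds overlapped, while fumarase FH had 0.49. Of 10 regulators of mitochondrial biogenesis chosen, 6 were among the listed genes and 5 were tested. All 5 tested regulators were above 0, against 52.9% of all tested genes, with a median of 0.58. Of the 5, only ESRRA was higher in JH at an unadjusted p under 0.05, against 8.35% of all tested genes. ESRRA, a nuclear receptor of oxidative genes, was at 77.2, 62.8 and 45.9 RPKM in JH and 38.5, 43.7 and 34.4 RPKM in LD, and TFAM, which packs mitochondrial DNA, was at 12.8, 12.3 and 14.2 RPKM and 11.7, 7.27 and 7.81 RPKM. Both of these were separated between the breeds with JH higher, as were 10.8% of all tested genes, and their adjusted p was 0.243 and 0.283 from limma. Macrophage markers, from cells that also express UCP2, had a median of 0.34 over 6 tested genes, and their summed level was 704 to 1693 RPKM in JH, highest in JH2, and 899 to 1025 RPKM in LD. Most of the JH2 sum came from C1QA at 705 RPKM and C1QC at 909 RPKM. C1QB and MARCO also peaked in JH2 among the JH pigs, while CSF1R and VSIG4 peaked in JH3, so the markers did not move together. JH2 also had the highest UCP2, and the part of macrophages in its value was not tested.

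**Figure D5:**
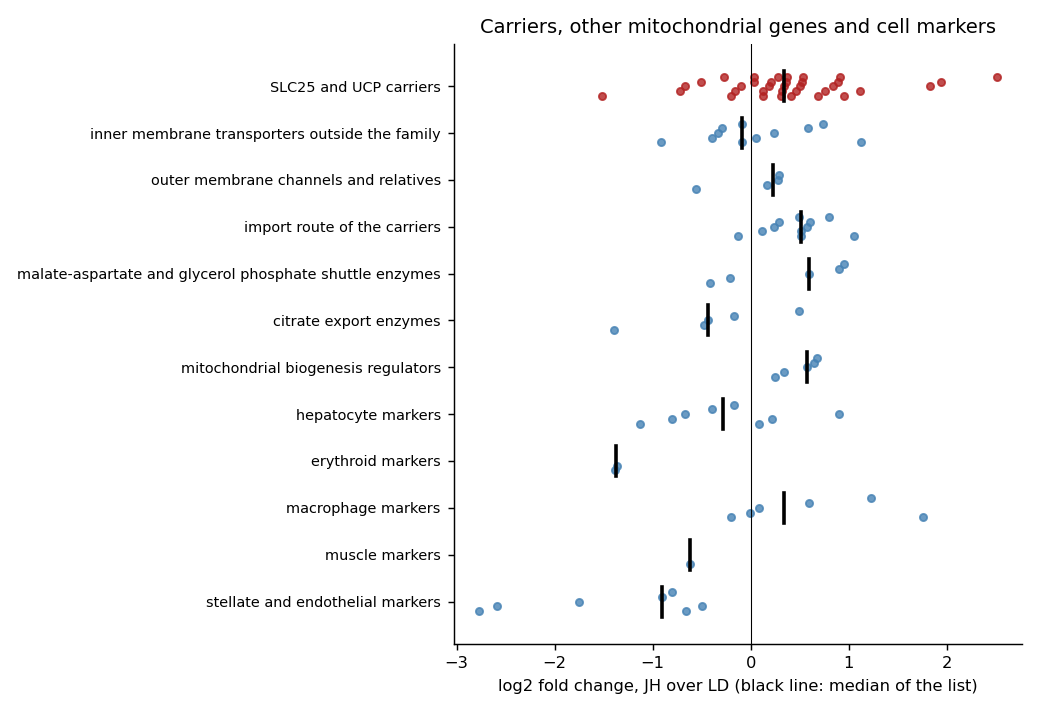
Log2 fold change, JH against LD, for the tested carriers (top row) and for each list of other mitochondrial genes and cell markers, with 1 point per gene and a black line at the median. The carriers have a median of 0.34, the import route 0.51 and the stellate and endothelial markers -0.91.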

How the data were processed

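Liver mRNA of 3 JH and 3 LD pigs was measured by single reads of 50 bases. The authors aligned the reads to Sus scrofa 10.2 with Tophat (the submitters' processing notes name TopHat2 2.0.13) and deposited 1 table of RPKM per library, in which gene length and library total are divided out. How reads that match several genes were assigned is not given in the sources used here. The 6 tables of miRNA values were not used. The study called genes from read numbers, while the tables hold RPKM, so limma 3.58.1 in R 4.3.3 (lmFit, eBayes with trend) was run on log2(RPKM + 0.1) over genes with at least 0.5 RPKM in at least 3 libraries. Fold changes are JH over LD on that scale, which understates the change of low genes, and p-values were adjusted by the Benjamini-Hochberg method over all tested genes. A fold change beyond 1 on the log2 scale and an adjusted p under 0.05 were required for a call.

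Since an RPKM is a whole number of reads times a step, reads were recovered from the deposited RPKM for 17880 of 19614 genes above 0 (91.2%), and a method tested on simulated data was used. The recovered genes held from 42.9% of the library total in JH3 to 56.4% in JH1. On the simulated data reads were recovered for 2626 of 2935 genes above 0, and 97.7% of those recovered were exact. Read intervals are exact Poisson 95% intervals and cover counting error only, since reads without molecular identifiers are not independent molecules. Symbols were taken as listed, and 24 identifiers read as dates were left as they are. RefSeq Sscrofa11.1 was used for names and gene order only, and 40 of 41 members matched. No genome or protein table was used, so sequences and protein features were not analysed here.

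Values in every library are given for members whose breeds did not overlap, the highest member of each role, the 5 largest fold changes in each direction and carriers known for liver metabolism. SLC25A26 and the genes beside SLC25A29 and SLC25A47 were named after their values were seen. The members and lists were chosen with earlier results of these data known. Each pig gave 1 library, so p-values measure the spread between pigs. Other pseudocounts, no filter, quantile normalization, median scaling, a replicate block, each library left out and, added after seeing the data, voom on the recovered reads were tried. A tested carrier and some genes of the other lists enter the counts, sums and medians but are not reported here by name.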

Additional observations from a re-analysis of the deposited data

How the results depend on the processing

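Counts of carriers past the threshold, with any size of change as well as beyond 1 on the log2 scale, moved from 0 to 1 with a pseudocount of 1 (SLC25A29), to 2 with quantile normalization and 2 with median scaling (SLC25A29 and SLC25A33) and to 1 with voom (SLC25A29). They stayed at 0 with a pseudocount of 0.01 and with no filter. Of all tested genes 2.62% passed with a pseudocount of 1, 3.06% with quantile normalization, 2.96% with median scaling and 3.15% with voom. With a pseudocount of 0.01 it was 1.53%, and with no filter 1.02%. With each library left out the counts of carriers ranged from 0 to 3, where without JH3 these were SLC25A5, SLC25A29 and SLC25A47 and without JH1 SLC25A48. The share of all tested genes then ranged from 0.5% without LD1 to 3.16% without JH3. The replicate block gave 3, SLC25A29, SLC25A33 and SLC25A47 with adjusted p of 0.0166, 0.0462 and 0.0112 from limma, and changed no other call among carriers. With the block 1.95% of all tested genes passed. Whether pigs of the same number were paired is not given in the sources used here. Deviations of same-numbered libraries correlated at -0.016, 0.052 and 0.177, and 2 of 6 libraries correlated best with their own number. These values cannot decide whether the pigs were paired, and the block is given as an alternative only. Carriers with separated breeds numbered 12 with quantile normalization and 13 with median scaling, and 9 to 18 with a library left out, with 12 without JH1, 18 without JH3, 17 without LD1 and 11 without LD2, where fewer pigs separate more easily. Of the separated carriers, 1 was lower in JH with quantile normalization, 1 with median scaling and 0 to 2 with a library left out. The share of separated genes among all tested genes is not given here for these settings. Carriers at an unadjusted p under 0.05 numbered 6 to 14, the highest without JH3. Those 14 were all higher in JH, where 13.4% of all tested genes were higher and 9.15% lower. The 6 came without JH2, with 5 higher in JH and 1 lower, against 5.42% and 9.2% of all tested genes. Genes of the other mitochondrial lists past the threshold were 1 with median scaling (MPC2) and 0 to 2 with a library left out, MPC2 and GPD1 without JH3. The sign turned for SLC25A15, to -0.046 with quantile normalization and within -0.23 to 0.45 with a library left out, and for UCP2, to -0.054 and within -0.35 to 0.26. Of 273 values of the 21 members given by library under the alternatives, 255 kept direction and side of the threshold, 13 came to pass it and 5 turned sign. No carrier passed in the main fit, so a move across the threshold could only be towards passing. These counts therefore do not measure how stable the values are. The cause of these moves was not tested. Depth limits SLC25A23, SLC25A35 and the untested SLC25A2, SLC25A41, SLC25A53 and UCP3, which rest on few reads. The untested SLC25A6 and SLC25A31 were listed at 0 in every library, which is not a measure of absence in this table.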
